A study of Homo sapiens with 6 samples.

Results

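Cells keep their sterol content steady by making sterols, taking them up, moving them between membranes and exporting the surplus. The 31 genes described here cover these 4 tasks and their control, and were taken by symbol. They comprise 8 genes of early synthesis (from acetyl-CoA to farnesyl and geranylgeranyl diphosphate), 12 of late synthesis (from squalene onward), 5 regulators of synthesis, 4 of uptake and trafficking and 2 of efflux. Each gene was read from its brightest probe set among those annotated to that symbol alone. This gave a value for 29 of the 31 genes, out of 18417 genes tested. FDFT1 had no probe set named here, and HSD17B7 had only one shared with HSD17B7P2, so both stayed outside the comparison.

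As background, sterol synthesis is controlled chiefly by SREBF2 and its relative SREBF1, membrane-bound factors that SCAP escorts from the endoplasmic reticulum when sterols run short and that INSIG1 and INSIG2 hold back when sterols are plentiful. The released factors act on promoters together with NF-Y and Sp1. When sterols accumulate, oxysterol-activated nuclear receptors raise the exporters ABCA1 and ABCG1 and the ubiquitin ligase MYLIP, which marks lipoprotein receptors for degradation. Mature red cells hold their cholesterol in the plasma membrane.

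The measurements were made in K562, a leukemia line grown from the cells of a patient with chronic myeloid leukemia, with erythroid and megakaryocytic potential. The 6 samples were monoclonal lines under puromycin selection, 3 stably transfected with empty pEF1α (vector lines 1 to 3) and 3 with pEF1α-Pu.2 (pEF1α-Pu.2 lines 1 to 3). The insert is the murine Pu.2 cDNA, which encodes a form of PU.1 that lacks the N-terminal activation domain and keeps the DNA-binding domain. The labels give an insect cell medium for these lines, whereas the methods of the study give RPMI for K562, and both groups share the same label. Each line is 1 clone measured on 1 Affymetrix Human Gene 1.0 ST array, so that n counts clones and a clone's own character cannot be told apart from the handling of its RNA. No probe set used here reads the mouse insert, so the transgene was not checked. The question put to the sterol genes was whether synthesis, uptake and efflux differed between the lines with and without Pu.2.

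Values are log2 probe set values, and a difference of 1 is a 2-fold difference. They compare lines within a gene and do not rank genes against each other. The medians of the arrays lay between 5.30 and 5.42. One vector line, line 3, was set apart from its group. Its correlation with vector lines 1 and 2 was r = 0.973 and 0.981 across genes, which are not independent replicates. The pEF1α-Pu.2 lines correlated with it at r = 0.982, 0.982 and 0.979, and vector lines 1 and 2 with each other at r = 0.988. By correlation it was the vector line nearest the pEF1α-Pu.2 lines, with which vector lines 1 and 2 correlated at r = 0.9743 to 0.9785. Values without vector line 3 are given beside the main results, and leaving it out removes that nearest vector line. In a fit that weighted the arrays, vector line 1 had a lower weight (0.403) than vector line 3 (0.48). Over all genes, 27 were higher in the pEF1α-Pu.2 lines and 41 lower (limma, adjusted p under 0.05), which is 0.147% and 0.223% of those tested, or 0.369% in either direction. Without vector line 3 these counts were 159 and 273, the largest of the 6 fits with 1 line left out. Markers of erythroid leukemia cells had a mean log2 value of 8.22, 8.27 and 8.64 in the vector lines against 8.99, 9.02 and 8.88 in the pEF1α-Pu.2 lines. Among 7 tested, 1 was higher, the embryonic globin HBZ. HEMGN, a nuclear protein of blood precursors, had 8.29, 8.74 and 10.56 against 10.81, 10.87 and 10.86, so that its vector line 3 lay near the pEF1α-Pu.2 lines. HEMGN differed by 1.65 on the log2 scale (adjusted p = 0.3), and by 2.33 without vector line 3 (adjusted p = 0.00014). HEMGN passed in 1 of 6 limma fits with 1 line left out, and its adjusted p there reached 0.82. The other 5 differed by 0.02 to 0.25. Of 6 markers of monocytes and macrophages, 1 was lower (LYZ, lysozyme, at -2.64), and their mean log2 value was 5.29, 5.19 and 4.93 against 4.59, 4.67 and 4.65. The others were mixed, with CD68 at -0.64 (groups not overlapping, adjusted p = 0.26, and 0.052 without vector line 3), CSF1R at 0.13 and MPEG1 at 0.22. With 1 line left out, the adjusted p of CD68 in limma ran from 0.052 to 0.78. The defining markers CD14 and CD163 lay between 3.23 and 4.23 in every line. None of the 6 megakaryocyte, 5 lymphocyte or 8 cell division markers tested passed. The lymphocyte marker CD3D, a chain of the T cell receptor complex, came nearest, with 6.74, 6.98 and 6.08 against 5.34, 5.58 and 5.12. Its log2 fold change of -1.25 (adjusted p = 0.09) became -1.51 without vector line 3 (adjusted p = 0.0022), and passed with array weights (adjusted p = 0.0043). CD3D passed in 1 of 6 limma fits with 1 line left out, where its adjusted p ran from 0.0022 to 0.36. The mean of the cell division markers was 9.08 in vector line 1 and 9.42 to 9.66 in the other 5 lines. The part of these marker differences in the sterol gene values was not tested. In bulk RNA, fewer cells of a type and less RNA per cell cannot be told apart.

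Promoter windows of 27 of the 31 genes were taken from RefSeq (GRCh38.p14), each running from 250 bases before to 50 after a start site, and 5 motifs were searched on both strands. The sequences below are the 250 bases before the start, printed 5′ to 3′ on the gene's strand, with every match in capitals. FAXDC2 and MYLIP are shown because they had the largest differences among the sterol genes, MSMO1 because it belongs to the same enzyme family as FAXDC2 and had overlapping groups, and NCEH1 because it was the other sterol-handling gene past the test. They lie at chr5:154850604-154850853 (minus strand) for FAXDC2, chr4:165327419-165327668 (plus strand) for MSMO1, chr6:16128836-16129085 (plus strand) for MYLIP and chr3:172711068-172711317 (minus strand) for NCEH1, in each case directly upstream of an annotated start.
FAXDC2: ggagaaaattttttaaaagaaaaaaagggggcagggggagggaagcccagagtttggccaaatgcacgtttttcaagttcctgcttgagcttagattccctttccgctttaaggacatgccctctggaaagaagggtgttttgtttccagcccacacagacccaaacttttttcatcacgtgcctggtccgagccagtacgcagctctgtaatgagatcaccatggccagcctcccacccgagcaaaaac
MSMO1: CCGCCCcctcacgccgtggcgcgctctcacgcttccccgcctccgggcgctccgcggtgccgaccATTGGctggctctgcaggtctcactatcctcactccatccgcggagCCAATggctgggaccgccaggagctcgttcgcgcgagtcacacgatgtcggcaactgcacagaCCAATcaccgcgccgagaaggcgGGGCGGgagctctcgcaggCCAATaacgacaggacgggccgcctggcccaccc
MYLIP: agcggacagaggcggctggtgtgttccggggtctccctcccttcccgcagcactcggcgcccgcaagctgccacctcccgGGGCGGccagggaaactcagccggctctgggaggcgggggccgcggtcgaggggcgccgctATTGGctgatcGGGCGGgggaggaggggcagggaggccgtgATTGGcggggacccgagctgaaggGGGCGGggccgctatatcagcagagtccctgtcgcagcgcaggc
NCEH1: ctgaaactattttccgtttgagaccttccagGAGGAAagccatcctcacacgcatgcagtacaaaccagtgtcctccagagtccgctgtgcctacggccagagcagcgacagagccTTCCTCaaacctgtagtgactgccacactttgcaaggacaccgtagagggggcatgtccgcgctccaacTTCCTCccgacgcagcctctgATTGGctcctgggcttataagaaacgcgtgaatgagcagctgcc

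The FAXDC2 window held none of the 5 motifs, as did 20.3% of the 35116 windows in the table and 3 of the 36 windows of the sterol genes. G and C made up 51.7% of the FAXDC2 window, 69.7% of that of MSMO1, 73.7% of that of MYLIP and 57% of that of NCEH1. The median of all windows was 58.7%. The part of base composition in the motif counts was not tested. The MSMO1 window held 4 NF-Y boxes and 2 Sp1 boxes, and the MYLIP window 2 NF-Y boxes and 3 Sp1 boxes. The NCEH1 window held 1 NF-Y box and 4 copies of the PU.1 core, the fourth of them 42 bases past the start and so outside the printed stretch. Windows with 4 or more such cores made up 0.0911% of all windows, and windows with 4 or more NF-Y boxes, as in MSMO1, 0.991%. The cutoff of 4 is the count in the NCEH1 and MSMO1 windows themselves, so these shares give a scale and test nothing. The NF-Y box CCAAT was found in 21 of the 36 windows of the sterol genes (58.3%) against 34.6% of all windows, and the Sp1 box GGGCGG in 32 of 36 (88.9%) against 45%. The PU.1 core GAGGAA was in 9 of 36 (25%) against 27.9%, and the GATA motif AGATAA in 2 of 36 (5.56%) against 10.3%. The sterol regulatory element, searched as TCACNCCAC, was in 1 window, that of SREBF2, and in 1.13% of all windows. It was in 0 of the 24 windows of synthesis genes. Only these exact letters were searched, so this count does not show that those promoters lack sterol regulatory elements. None of the 5 motifs contains another, although neighbouring matches can share a base. A match describes letters in this window and is not a measured site.

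The sterol genes showed 1 rise past the test and no fall past it. FAXDC2 rose 3-fold in the pEF1α-Pu.2 lines. The other 17 synthesis genes measured, the 5 regulators and both exporters did not pass, and most of the log2 fold changes were small. MYLIP and STARD4, of uptake and trafficking, had the lowest log2 fold changes together with EBP, a late synthesis enzyme. Of the 29 genes, 1 (FAXDC2) was called higher against 0.147% of all genes, and 0 were called lower against 0.223%. At an unadjusted p under 0.05 in limma, 1 was higher and 6 lower (MYLIP, STARD4, NSDHL, EBP, FDPS and GGPS1), against 3.83% of all genes higher and 5.7% lower. The groups did not overlap in 1 gene that was higher, against 7.02% of all genes, and in 5 that were lower (MYLIP, STARD4, NSDHL, FDPS and GGPS1), against 6.8%. All of the 29 genes except MVK, ABCA1 and ABCG1 were no dimmer than the median probe set. Of the 10496 genes that bright, 895 fell and 491 rose by the same limma cutoff. Non-overlapping groups were found in 987 of them that fell and 723 that rose. Both counts of falls are larger shares than the 5.7% and 6.8% of all genes. Log2 fold changes were below 0 in 22 of the 29 genes (75.9%), compared with 45.9% of all genes and 51.6% of genes no dimmer than the median probe set. The median log2 fold change of the 29 genes was -0.16, beside 0.02 over all genes. These genes were chosen with earlier results of the same data known, so the shares give a scale only and test no enrichment.

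**Figure D1:**
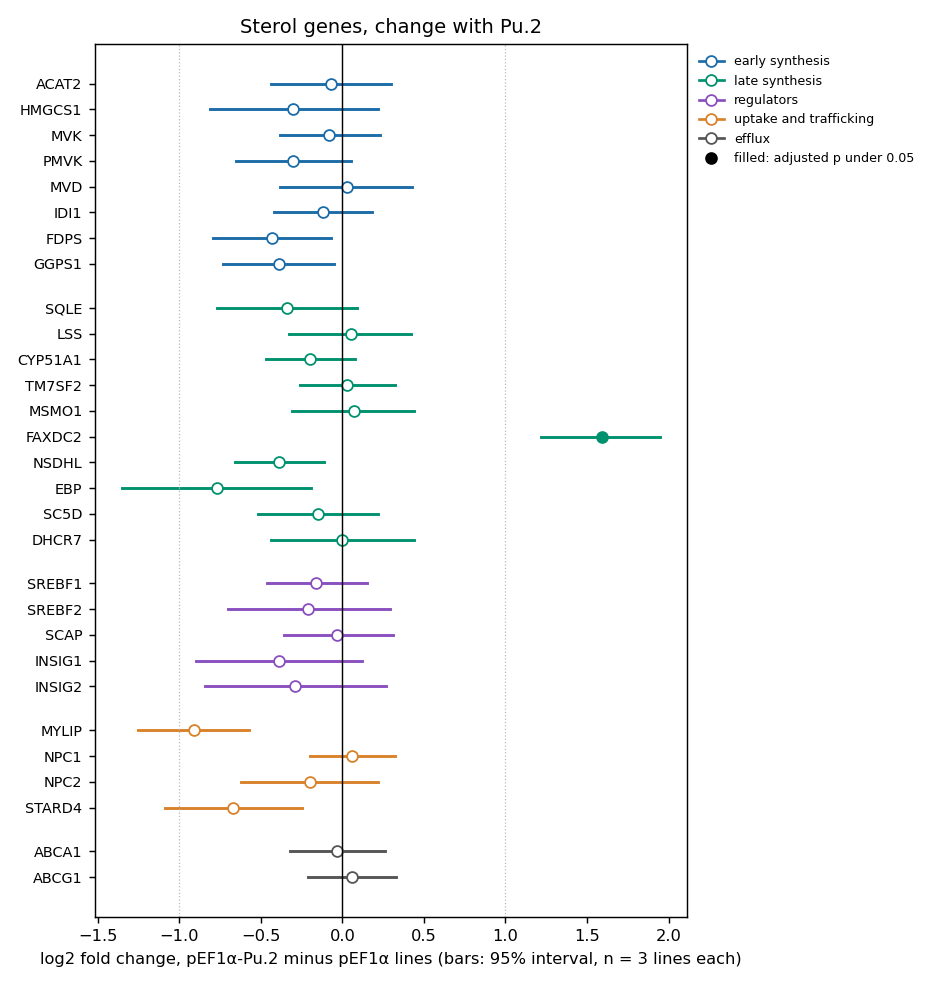
Log2 fold change (pEF1α-Pu.2 minus vector lines, x axis) of the 29 sterol genes by role (y axis), with the 95% interval from limma and n = 3 lines in each group. FAXDC2, at 1.59, is the only filled point (adjusted p under 0.05), and MYLIP, EBP and STARD4 lie lowest at -0.91, -0.77 and -0.67.

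By role, the median log2 fold change was -0.13 for 18 synthesis genes, -0.21 for 5 regulators, -0.44 for 4 genes of uptake and trafficking and 0.02 for the exporters. Without vector line 3 these medians were -0.15, -0.25, -0.59 and -0.03, and the median over all genes was 0.00. Within synthesis the early genes had a median of -0.21 and the late genes one of -0.08. The uptake and trafficking set joins MYLIP (-0.91), which acts against lipoprotein receptors, with STARD4 (-0.67), NPC2 (-0.20) and NPC1 (0.06). Its median therefore gives no direction for uptake. Both exporters had dim probe sets, so their median gives no direction for efflux. The medians by role are descriptions over few genes, and the differences between roles were not tested.

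**Figure D2:**
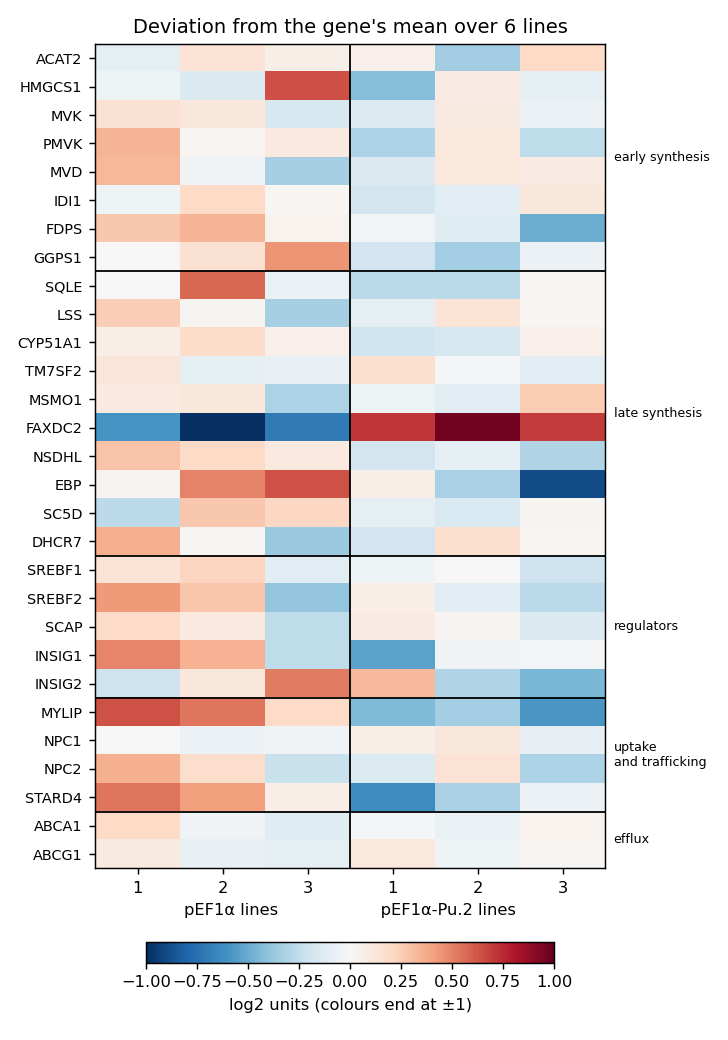
Deviation of each sterol gene (rows, by role) in each line (columns) from that gene's mean over the 6 lines, in log2 units, with colours ending at ±1. FAXDC2 is low in the 3 vector lines and high in the 3 pEF1α-Pu.2 lines, MYLIP shows the opposite, and in vector line 3 the regulators other than INSIG2 lie below their means.

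FAXDC2 encodes a member of the fatty acid hydroxylase family, which also holds the sterol enzymes MSMO1 and SC5D. Its log2 values were 7.04, 6.55 and 6.93 in vector lines 1 to 3 against 8.35, 8.60 and 8.33 in pEF1α-Pu.2 lines 1 to 3. Every pEF1α-Pu.2 line lay above every vector line, with 1.29 between the nearest lines of the groups. The mean was 6.84 ± 0.26 with empty vector and 8.43 ± 0.15 with Pu.2 (SD, n = 3 clones per group). FAXDC2 thus rose by 1.59 on the log2 scale (standard error, SE, 0.16, 95% interval 1.22 to 1.95, adjusted p = 0.0072 from limma). It passed in 6 of 6 fits with 1 line left out, at log2 fold changes of 1.44 to 1.69, and was 1.63 without vector line 3 (adjusted p = 0.002). The 3 tested genes on either side of FAXDC2 on the chromosome had log2 fold changes of -0.13 to 0.27, and 0 of these 6 passed.

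MSMO1, the C-4 methylsterol oxidase of the main pathway, had log2 values of 8.02, 8.04 and 7.61 in the vector lines against 7.87, 7.82 and 8.18 in the pEF1α-Pu.2 lines. The groups overlapped, at a log2 fold change of 0.07 (95% interval -0.31 to 0.44). SC5D, the desaturase of the same family, had 6.46, 6.99 and 6.93 against 6.63, 6.57 and 6.75. Its pEF1α-Pu.2 lines lay within the range of the vector lines, at -0.15 (95% interval -0.52 to 0.22). The upper bounds of both intervals lay below the lower bound for FAXDC2. The differences between these genes' changes were not tested.

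Among the early enzymes, FDPS and GGPS1, which build farnesyl diphosphate and geranylgeranyl diphosphate, had groups that did not overlap. FDPS had log2 values of 9.27, 9.34 and 9.03 in the vector lines against 8.97, 8.88 and 8.50 in the pEF1α-Pu.2 lines. Vector line 3 and pEF1α-Pu.2 line 1 were 0.06 apart, and pEF1α-Pu.2 line 3 was the lowest. The log2 fold change of FDPS was -0.43 (SE 0.16, 95% interval -0.79 to -0.07, adjusted p = 0.42 from limma). GGPS1 had 7.89, 8.04 and 8.33 against 7.70, 7.55 and 7.83. Here vector line 3 was the highest, and vector line 1 stood 0.06 above pEF1α-Pu.2 line 3. GGPS1 differed by -0.39 (SE 0.15, 95% interval -0.73 to -0.05, adjusted p = 0.44). Neither passed the test, and without vector line 3 their log2 fold changes were -0.52 for FDPS and -0.27 for GGPS1.

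The remaining early enzymes carry acetyl-CoA to isopentenyl and dimethylallyl diphosphate, and their groups overlapped. HMGCS1, the synthase that precedes mevalonate, had 9.47, 9.37 and 10.16 against 9.09, 9.60 and 9.42. Vector line 3 was the highest of the 6, and the log2 fold change moved from -0.30 (adjusted p = 0.79) to -0.05 without it. PMVK, the phosphomevalonate kinase, had a log2 fold change of -0.30 (95% interval -0.65 to 0.05). IDI1, the isomerase, had one of -0.12, the kinase MVK one of -0.08 and ACAT2, the thiolase of the first step, one of -0.07. MVD, the decarboxylase, was at 0.03 and was the only early gene above 0.

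In late synthesis, NSDHL and EBP had the lowest adjusted p after FAXDC2. NSDHL, a dehydrogenase that works in removing the C-4 methyl groups, had 8.67, 8.58 and 8.48 in the vector lines against 8.20, 8.29 and 8.08 in the pEF1α-Pu.2 lines. All vector lines lay above all pEF1α-Pu.2 lines, by 0.19 or more, and the spread within each group was small. The log2 fold change was -0.39 (SE 0.12, 95% interval -0.66 to -0.11, adjusted p = 0.32 from limma). EBP, the isomerase that shifts the ring double bond, had 9.72, 10.19 and 10.33 against 9.75, 9.37 and 8.80. Vector line 1 and pEF1α-Pu.2 line 1 were nearly level, and the other lines of the 2 groups stood apart. EBP had a log2 fold change of -0.77 (SE 0.25, 95% interval -1.35 to -0.19, adjusted p = 0.36). Without vector line 3 the log2 fold change was -0.44 for NSDHL and -0.64 for EBP.

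SQLE, the epoxidase that commits squalene to sterols, had 10.14, 10.71 and 10.07 against 9.88, 9.87 and 10.16. Vector line 2 was the high one, and the groups overlapped at a log2 fold change of -0.34 (95% interval -0.77 to 0.09). CYP51A1, the lanosterol demethylase, was at -0.20 (95% interval -0.47 to 0.08). LSS, which closes the sterol ring, the reductase TM7SF2 and DHCR7, a reductase of the last steps, were at 0.05, 0.03 and -0.00. LSS and DHCR7 had their lowest value in vector line 3, at 5.78 and 7.88, and without it were at -0.11 and -0.19.

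For the 17 synthesis genes other than FAXDC2, log2 fold changes lay between -0.77 and 0.07 with a median of -0.15. Their 95% intervals ran from -1.35 at the lowest to 0.44 at the highest. These bounds are 2.56-fold lower and 1.36-fold higher. The interval of 1 gene, EBP, reached beyond 2-fold lower, and 0 reached beyond 2-fold higher. A p that missed the threshold does not show that these genes were equal between the groups. Taken by line, the median deviation of the 18 synthesis genes from their own means was 0.08, 0.13 and 0.02 in the vector lines against -0.15, -0.10 and 0.02 in the pEF1α-Pu.2 lines, so that vector line 3 and pEF1α-Pu.2 line 3 were level.

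All 5 regulators had log2 fold changes below 0 and none passed the test. INSIG1, which retains the SREBF factors in the endoplasmic reticulum and is itself one of their targets, had 9.28, 9.14 and 8.54 in the vector lines against 8.26, 8.76 and 8.77 in the pEF1α-Pu.2 lines. Vector line 3 lay among the pEF1α-Pu.2 lines. The log2 fold change was -0.39 (SE 0.22, 95% interval -0.90 to 0.12, adjusted p = 0.67 from limma), and -0.61 without vector line 3 (adjusted p = 0.17). INSIG2, its relative, had 6.19, 6.51 and 6.91 against 6.72, 6.09 and 5.94. In this gene vector line 3 was the highest, at a log2 fold change of -0.29 (SE 0.24, 95% interval -0.84 to 0.27, adjusted p = 0.82), and -0.10 without that line. SREBF2, SREBF1 and the escort SCAP were at -0.21, -0.16 and -0.03, and without vector line 3 at -0.45 (adjusted p = 0.23), -0.25 and -0.16. For INSIG1 and SREBF2 the fit without vector line 3 gave the lowest adjusted p of the 6 fits with 1 line left out. SREBF2 was lowest in vector line 3, at 6.13 beside 6.95 and 6.80 in vector lines 1 and 2 and 6.59, 6.42 and 6.25 in the pEF1α-Pu.2 lines. By line, the median deviation of the regulators was 0.19, 0.22 and -0.25 in the vector lines against 0.07, -0.03 and -0.20 in the pEF1α-Pu.2 lines.

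MYLIP, the ubiquitin ligase for lipoprotein receptors, had the largest negative difference among the sterol genes. Its log2 values were 7.93, 7.83 and 7.48 in the vector lines against 6.85, 6.95 and 6.71 in the pEF1α-Pu.2 lines. The groups were 0.53 apart at their nearest, with vector line 3 the lowest of its group. The means were 7.75 ± 0.24 and 6.84 ± 0.12 (SD, n = 3 clones per group). The log2 fold change was -0.91 (SE 0.15, 95% interval -1.25 to -0.57, adjusted p = 0.06 from limma), which did not pass. Without vector line 3 the log2 fold change was -1.04 (adjusted p = 0.0054), and over all alternatives the adjusted p ran from 0.0032 to 0.28. The 6 nearest tested genes on the chromosome had log2 fold changes of -0.33 to 0.35, and 0 of them passed.

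STARD4, a soluble carrier that moves cholesterol to the endoplasmic reticulum, had 8.03, 7.91 and 7.56 against 6.87, 7.17 and 7.44. Vector line 3 and pEF1α-Pu.2 line 3 were 0.12 apart, and the other lines were more widely separated. Its log2 fold change was -0.67 (SE 0.18, 95% interval -1.09 to -0.25, adjusted p = 0.25 from limma), and -0.81 without vector line 3 (adjusted p = 0.06). Over the 6 fits with 1 line left out, the adjusted p of STARD4 ran from 0.06 to 0.73, and it passed in 0. NPC1 and NPC2 together pass cholesterol out of the lysosome. NPC1 was nearly level in all lines, between 7.92 and 8.11, at a log2 fold change of 0.06 (95% interval -0.20 to 0.32). NPC2 was at -0.20 (95% interval -0.62 to 0.22), with overlapping groups, and at -0.37 without vector line 3.

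The exporters ABCA1, which loads apolipoproteins, and ABCG1, which loads formed particles, did not pass the test. ABCA1 had log2 values of 3.68, 3.44 and 3.36 against 3.47, 3.41 and 3.51, a log2 fold change of -0.03 (SE 0.13, 95% interval -0.32 to 0.26, adjusted p = 0.97 from limma). ABCG1 had 4.20, 4.03 and 4.01 against 4.21, 4.06 and 4.13, a log2 fold change of 0.06 (SE 0.12, 95% interval -0.21 to 0.33, adjusted p = 0.93). The groups of both overlapped. These probe sets were among the dimmest of the sterol genes, with 17% and 27.5% of all probe sets below them. Their values lay in the range of the markers CD14 and CD163 (3.23 to 4.23). Whether either exporter was expressed was not tested, so a change could be understated or missed. With MVK, ABCA1 and ABCG1 were the 3 sterol genes below the median level of all probe sets (5.37).

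**Figure D3:**
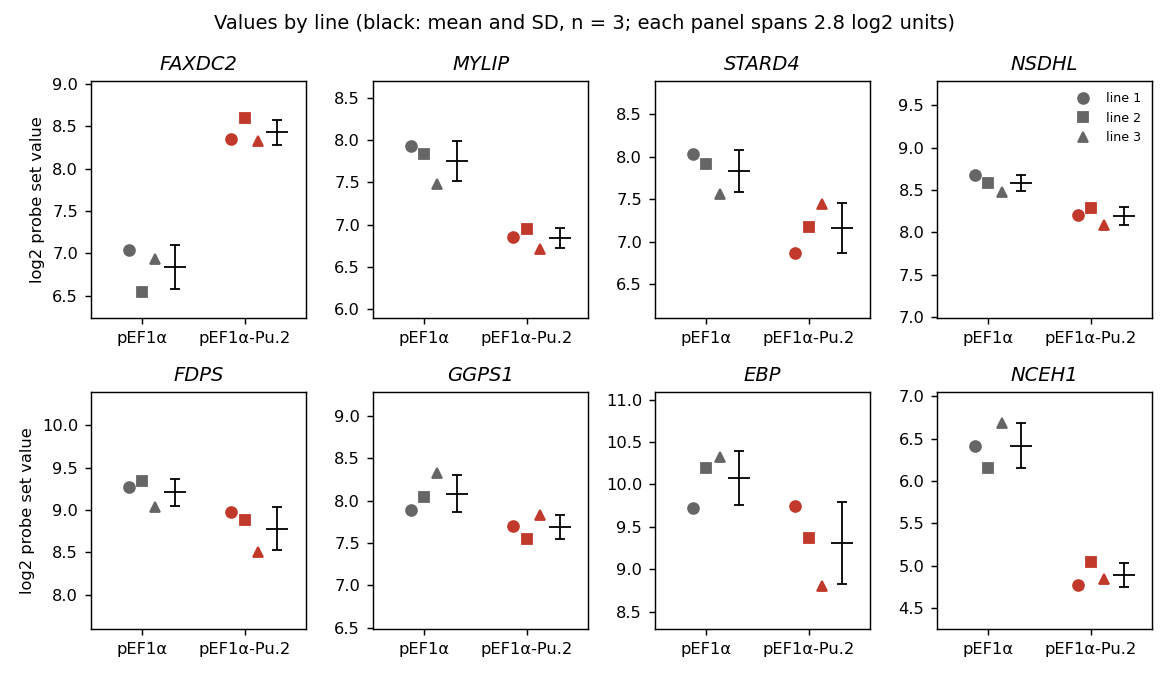
Log2 probe set value (y axis) in each line for 7 sterol genes and NCEH1, with the mean and SD of each group (n = 3 lines) in black. Every panel spans 2.8 log2 units. FAXDC2, MYLIP and NCEH1 show wide gaps between the groups, FDPS and GGPS1 lie 0.06 apart at their nearest, and EBP overlaps.

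Of 47 further genes of sterol and fatty acid handling, 43 were tested, 0 were higher and 1 was lower (NCEH1), against 0.147% and 0.223% of all genes. NCEH1, a hydrolase of the endoplasmic reticulum that frees cholesterol from its stored esters, had log2 values of 6.41, 6.16 and 6.69 in the vector lines against 4.77, 5.05 and 4.84 in the pEF1α-Pu.2 lines. The groups were 1.11 apart at their nearest. Its mean fell from 6.42 ± 0.27 to 4.89 ± 0.14 (SD, n = 3 clones per group). The log2 fold change was -1.53 (SE 0.16, 95% interval -1.90 to -1.17, adjusted p = 0.0086 from limma), or 2.89-fold lower, and -1.40 without vector line 3 (adjusted p = 0.0019). It missed the threshold without pEF1α-Pu.2 line 1 (adjusted p = 0.06) and without pEF1α-Pu.2 line 3 (adjusted p = 0.056). The acyltransferase SOAT1, which makes these esters, was at 0.05, and the lysosomal hydrolase LIPA at 0.12. The 6 nearest tested genes of NCEH1 had log2 fold changes of -0.88 to 1.19, and 0 of them passed.

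The groups did not overlap in 7 of the 43 that were lower, against 6.8% of all genes, and in 1 that was higher (ABCA7, 0.22), against 7.02%. Beside NCEH1 the lower ones were OSBPL2, FNTA, ACACA, ACSS2, ERLIN2 and ACLY, and none of these passed the test. OSBPL2, a lipid transfer protein, had 7.22, 6.99 and 6.82 against 6.67, 6.32 and 6.18, a log2 fold change of -0.62 (SE 0.17, adjusted p = 0.25). FNTA, the shared subunit of the enzymes that attach prenyl groups made by FDPS and GGPS1 to proteins, had 8.68, 8.67 and 8.41 against 7.93, 8.14 and 8.04, a log2 fold change of -0.55 (SE 0.13, adjusted p = 0.18). In both genes vector line 3 was the lowest vector line, and without it the log2 fold changes were -0.71 for OSBPL2 (adjusted p = 0.089) and -0.63 for FNTA (adjusted p = 0.051). These were the lowest adjusted p of the 6 limma fits with 1 line left out. The highest were 0.71 for OSBPL2 and 0.66 for FNTA.

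Fatty acid synthesis, the branch under SREBF1, had a median log2 fold change of -0.31 over 9 genes, none past the test. Its groups did not overlap in 3 of the 9 genes, all lower, against 6.8% of all genes lower and 7.02% higher. ACACA, the acetyl-CoA carboxylase, had 8.52, 8.75 and 8.77 against 8.32, 8.21 and 8.28, a log2 fold change of -0.41 (adjusted p = 0.29). The acetyl-CoA producing enzymes ACSS2 and ACLY were at -0.39 and -0.31. The groups overlapped in the other genes of this list. ELOVL6 was at -0.57, SCD at -0.34 and ACSS1 at -0.04, while the fatty acid synthase FASN was at 0.08, ME1 at 0.11 and THRSP at 0.23. The other lists lay nearer 0. Their medians were -0.10 for processing and turnover of the SREBF factors (6 of 8 genes tested), -0.02 for the prenyl and isoprenoid branches (6 of 7), 0.05 for storage and hydrolysis (3), 0.01 for intracellular transport (11), 0.09 for the lipoprotein receptor SCARB1 with further exporters (3) and -0.10 for oxysterol enzymes and receptors (5 of 6). Over all 43 genes the median was -0.02, beside 0.02 for all genes tested.

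**Figure D4:**
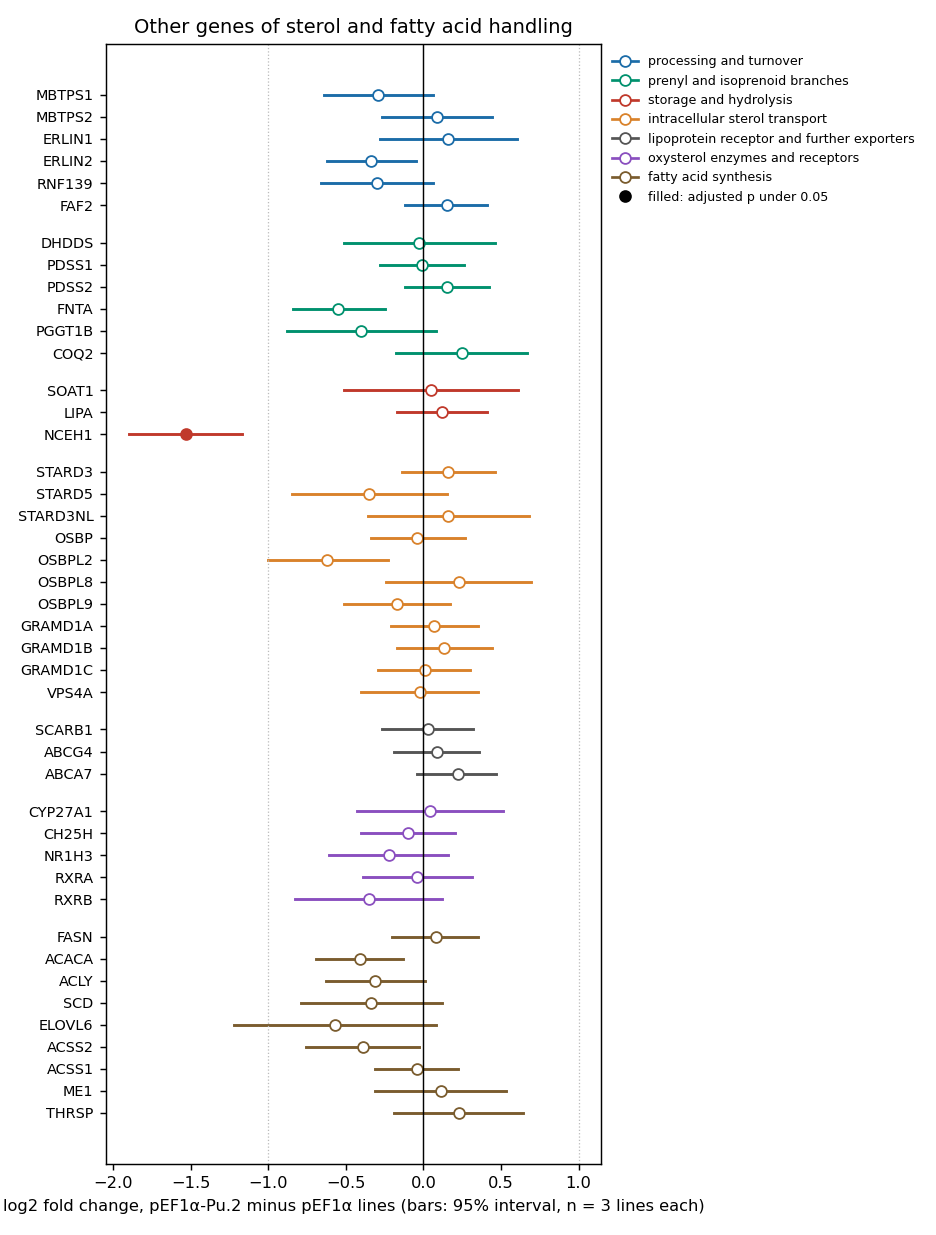
Log2 fold change (pEF1α-Pu.2 minus vector lines, x axis) of 43 other genes of sterol and fatty acid handling by list (y axis), with the 95% interval from limma and n = 3 lines in each group. NCEH1, at -1.53, is the only filled point (adjusted p under 0.05).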

How the data were processed

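Total RNA of 6 monoclonal K562 lines was hybridized by the authors to 1 Human Gene 1.0 ST array per line, and the deposited values are log2 probe set values from Affymetrix Expression Console. How that software summarized the probes, its version, scan dates and batches were not given in the sources used here. Of 33297 probe sets, 19460 carried 1 symbol in the platform annotation, 1754 several and 12083 none here. Gene IDs of 19429 were found in the RefSeq table of GRCh38.p14, and 0 symbols were updated. Where a gene had several probe sets (769 of 18417 genes, CYP51A1 among the sterol genes) the brightest over the 6 arrays was taken, with no filter on dim probe sets.

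Groups were compared in limma 3.58.1 (R 4.3.3), by lmFit with equal weights and eBayes with no trend, adjusted by Benjamini-Hochberg over all 18417 genes, at a threshold of 0.05. The scripts were tested on simulated data. Nothing states that the lines came from separate transfections, so p-values measure the spread between these clones. With 3 lines against 3, exact permutation gives at least p = 0.1, and the number of arrays limits the precision. The genes, lists, motifs and alternatives were chosen with earlier results of these data known.

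All genes of the set were named. Full statistics were given for those past the test, those whose groups did not overlap and the 2 largest differences of each role. Of the other pathway genes, those past the test and the 4 largest without overlap were named. ERLIN2, ACLY and ABCA7, which complete small counts, were named after their values were seen. So were SOAT1, LIPA, SCARB1, the single markers and the fatty acid synthesis genes other than ACACA and ACSS2. Results were recomputed with quantile normalization, median centring, a trend with robust fit, array weights, averaged probe sets of a gene, only genes no dimmer than the median probe set, the replicate number as block, and with 1 line left out at a time. Promoter windows were credited to RefSeq, and the 4 sterol genes ACAT2, FDFT1, SQLE and ABCG1 had none in the table used.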

Additional observations from a re-analysis of the deposited data

How the results depend on the processing

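FAXDC2 passed in all 13 alternatives (adjusted p = 0.00045 to 0.049 from limma), NCEH1 in 11 (0.0019 to 0.06) and MYLIP in 3 (0.0032 to 0.28). The count of sterol genes called higher was 1 throughout. The count called lower was 0, but 1 with the filter on dim probe sets (MYLIP, adjusted p = 0.048), 6 with array weights, and 0 to 1 with a line left out (1 without vector line 3, MYLIP). Array weights gave vector line 2 a weight of 5.524, vector line 1 the lowest at 0.403 and vector line 3 one of 0.48. The pEF1α-Pu.2 lines had 0.79 to 1.343. With these weights EBP, FDPS, MYLIP, NSDHL, SQLE and STARD4 were called lower. Over all genes, with 1 line left out, 8 to 159 were higher and 11 to 273 lower, both largest without vector line 3. Array weights gave 514 and 835, and median centring 17 higher. Nothing states that the replicate numbers pair the lines. Deviations from the group mean gave no sign of pairing. They correlated at r = -0.147, -0.148 and -0.045 for same-numbered lines and at -0.004 to 0.119 for the others. With the replicate block, 23 genes were higher and 41 lower, 1 sterol gene was higher and 0 lower, and FAXDC2 and NCEH1 passed (adjusted p = 0.032 each) while MYLIP did not (0.079). The lymphocyte marker CD3D passed with the replicate block (adjusted p = 0.041).

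With 1 line left out the synthesis median ran from -0.20 to -0.05 (the latter without vector line 2), the regulator median from -0.25 to -0.12, that of uptake and trafficking from -0.59 to -0.32 and the efflux median from -0.03 to 0.09. The direction held in 21 of the 29 sterol genes and turned in 8, all within 0.07 of 0. With a line left out ACAT2 ran from -0.18 to 0.09, MVD from -0.13 to 0.20, LSS from -0.11 to 0.18, TM7SF2 from -0.04 to 0.10, MSMO1 from -0.07 to 0.14, DHCR7 from -0.19 to 0.17, SCAP from -0.16 to 0.06 and ABCA1 from -0.10 to 0.06. Median centring put MVD at -0.0078 and TM7SF2 at -0.0028, quantile normalization put DHCR7 at 0.02, and array weights put MSMO1 at -0.08, DHCR7 at 0.02 and ABCA1 at 0.0023. The cause of these shifts was not tested. The filter removed MVK, ABCA1 and ABCG1, so the efflux median has no value there.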

Other observations

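Probe sets outside the comparison gave values for genes or pairs of genes that share sequence. The probe set shared by HSD17B7, a ketosteroid reductase of late synthesis, and HSD17B7P2 had log2 values of 8.45, 8.43 and 7.47 in the vector lines against 7.85, 7.80 and 7.85 in the pEF1α-Pu.2 lines. Vector line 3 was the lowest of the 6, and the difference of the means was -0.28, or -0.61 without that line. The pair of probe sets shared by FDPS and FDPSP2 had 6.24, 6.39 and 6.28 against 6.12, 6.03 and 5.64 in one and 6.72, 6.79 and 6.61 against 6.58, 6.47 and 5.98 in the other. As with the probe set of FDPS alone, every vector line lay above every pEF1α-Pu.2 line and pEF1α-Pu.2 line 3 was the lowest. The second probe set of CYP51A1 had 7.11, 6.98 and 7.03 against 7.13, 7.03 and 6.83, a difference of -0.04.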
